A study of Caenorhabditis elegans with 12 samples.

Results

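Histones are the proteins around which DNA is wound. Pairs of H2A, H2B, H3 and H4 form the core of the nucleosome, the linker histone H1 binds the DNA between cores, and the variant H3.3 replaces H3 outside of DNA replication. In animals most core histone genes lie in clusters without introns, are transcribed mainly during S phase, and give short mRNAs that usually end in a stem-loop bound by a stem-loop binding protein (CDL-1 in *C. elegans*). H3.3 genes typically carry introns and are transcribed throughout the cell cycle. In adult worms cells divide in the germline.

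The histone genes described here are the protein-coding genes of *C. elegans* whose symbol is *his-* followed by a number. They are 72 of the 46725 worm genes in the tables, namely 17 H2A, 17 H2B, 15 H3, 16 H4, 6 H3.3 and 1 H1 gene. Classes were assigned by symbol and not checked against protein sequences, and *his-73* was placed with H3.3 without an annotation. The 12 libraries come from vIPR, in which worms are crosslinked, lysed, and a transcript is captured with biotinylated DNA probes. All worms were young adults, and each condition was sequenced in 1 library, so that no difference given here has a replicate check and no p-value is given. Strain BS1080 carries a *gld-1::gfp* transgene next to its endogenous *gld-1* gene and gave total RNA, extracted from whole worms with Trizol and labelled with the PAR-XL experiment, an input and an elution after 4SU labelling and UV crosslinking (PAR-XL), an elution after paraformaldehyde crosslinking (PFA-XL), and an input and an elution after UV crosslinking without label (cXL). Strain DG3913 carries *gfp::lin-41* at the endogenous locus and gave a cXL input and elution. Both strains were probed for *gfp*. The wild type, N2, gave 1 cXL input and 3 elutions, with probes to *gld-1*, *lin-41* or *alg-1*. Input and elution of PAR-XL were taken from separate pulldowns, the PFA-XL elution has no input of its own, and the 3 N2 elutions share their input. The paper describes growing worms for 4SU labelling in liquid culture, and worms for the other crosslinks on plates with an earlier harvest.

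Levels are given as TPM, the length-corrected abundances that kallisto estimates, rescaled here to 1000000 over worm genes without ribosomal RNAs and without the captured target. Between 12227263 and 26695650 estimated counts remained in total RNA and the inputs, and between 130297 and 3480645 in the elutions, most of whose RNA is human carrier RNA. A count of 3, the most that a count of 0 allows, is worth 0.162 CPM (counts scaled to 1000000, with no length correction) in total RNA and 23.0 CPM in the N2 *alg-1* elution. Intervals are 95% intervals from the counting error of estimated counts, and cover that error only. Markers of the mitotic germline (4 of 4 genes) and of oocytes (4 of 4) were above 1 TPM in total RNA and every input, and none of 6 early embryo markers was above 1 TPM in all of them.

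The 72 genes form 18 loci when neighbours within 20 kb are joined. At 9 of these loci at least 4 histone genes lie together, 58 genes in all. By chromosome of WBcel235, 27 of the genes are on V, 22 on IV, 14 on II, 4 on X, 3 on III and 2 on I. The largest locus is on chromosome II (13817759 to 13828697) and holds 13 genes. Another on chromosome IV (11323885 to 11341495) holds 8 genes, among them *his-47* (H2A) and *his-58* (H2B), and is followed by a locus of 4 genes with *his-63* (H3) and *his-64* (H4) at 11400415 to 11407496. The annotation gives 64 genes a single exon. The 8 with introns are *his-24* (H1), *his-35* and *his-57* (H2A), *his-41* (H2B), *his-37* (H4) and the H3.3 genes *his-71*, *his-72* and *his-74*. Histone transcripts are short, 312 to 902 nt with a median of 411 nt, and for 36 genes the transcript in the tables is the coding sequence alone.

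Many of these genes are copies that a read cannot tell apart. Estimated counts were the same in all 12 libraries, to 3 digits, for 26 genes in 11 groups, the largest being the 4 H2A genes *his-19*, *his-21*, *his-51* and *his-53*, each at 35.6 TPM in total RNA and 133 TPM in the N2 input. Such groups share 1 measurement. In total RNA 67 genes had more than 0.5 of a count, of which 9 had whole counts within 0.01. These 9 held 16.4% of the 303344 histone counts, and all other counts were divided between genes by kallisto.

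The division moved between libraries. *his-45*, *his-55* and *his-63* encode H3 and lie on chromosome IV. *his-45* had 3876 TPM in total RNA, 7526 in the PAR-XL input, 2753 in the PAR-XL elution and 2983 in the PFA-XL elution, but at most 299 TPM in the 8 cXL libraries. *his-55* was at 0 TPM after PAR-XL or PFA-XL crosslinking, but at 7093, 4359 and 8325 TPM in the cXL inputs of *gld-1::gfp*, *gfp::lin-41* and N2. The 3 genes together had 10548 TPM in the PAR-XL input and 22582 TPM in the cXL input of the same strain. The H2B genes *his-48*, *his-58* and *his-66* behaved likewise, with 8516 TPM of *his-48* in the PAR-XL input against 39.7 TPM in the *gld-1::gfp* cXL input, while their sums were 25274 and 25557 TPM. In the *gld-1::gfp* cXL elution *his-48* had 3523 TPM again. Crosslinking, library series and, for PAR-XL, worm culture follow nearly the same split and cannot be told apart. The length that kallisto subtracted for fragments did not follow this split. It was 150 nt in total RNA and 220 nt in the PAR-XL input. In the PAR-XL and PFA-XL elutions it was 317 and 316 nt, within the 249 to 373 nt of the cXL libraries. The part of fragment length in the division was not tested. The H4 genes *his-46*, *his-56* and *his-64* and the H2A genes *his-47*, *his-57* and *his-65* also shifted reads among themselves. Sums over a class are therefore given first here, and sums over these 4 sets of 3 genes are given beside their single members.

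**Figure D1:**
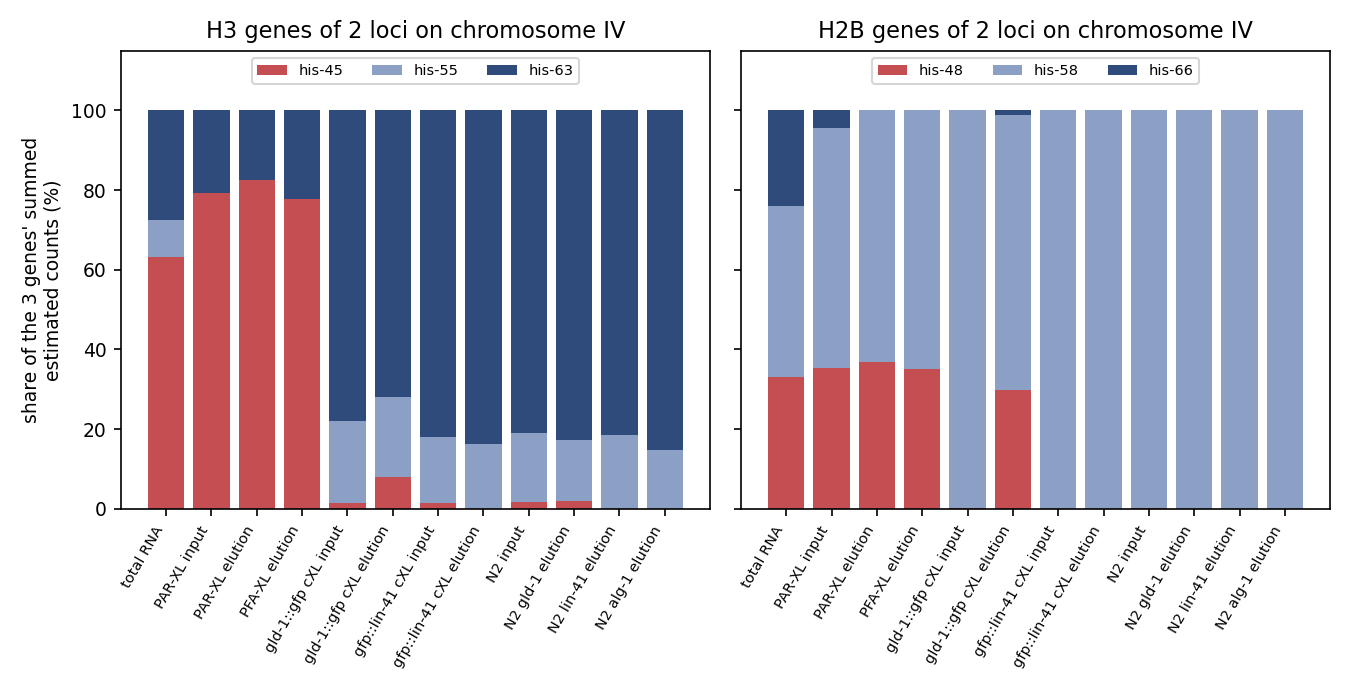
Share of estimated counts (%) that kallisto gave to each of 3 H3 genes (left) and 3 H2B genes (right) in the 12 libraries, 1 bar per library. *his-45* took 63.3% to 82.6% of the H3 set in total RNA, PAR-XL and PFA-XL, but no more than 8.08% in any cXL library.

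Histone mRNA was among the most abundant RNA of the worm. The 72 genes summed to 51363 TPM in total RNA, 76664 in the PAR-XL input, 107776 in the *gld-1::gfp* cXL input, 89382 in the *gfp::lin-41* cXL input and 136858 in the N2 input, which is 5.14% to 13.7% of worm TPM and 1.57% to 2.55% of worm counts. By TPM *his-58*, an H2B gene, was the most abundant protein-coding gene in all 5 of these libraries, at 6585, 14814, 25517, 18269 and 42739 TPM in the same order. Its level depends on how reads were divided with *his-48* and *his-66*. The 3 genes summed to 17336 TPM in total RNA and 42791 TPM in the N2 input. *his-58* was followed by *his-63* (H3) with a mean of 10875 TPM, *his-47* (H2A) with 10704 and *his-64* (H4) with 9175. These levels spanned a wide range between genes, since 53 of 72 genes were above 1 TPM in all 5 libraries, while the median gene had 47.8 TPM in total RNA. The 22 genes of chromosome IV held 91.8% of histone TPM in total RNA, 92.7% in the PAR-XL input, 88.7% in the *gld-1::gfp* cXL input and 87.5% in the N2 input, but 71.7% in the *gfp::lin-41* cXL input.

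**Figure D2:**
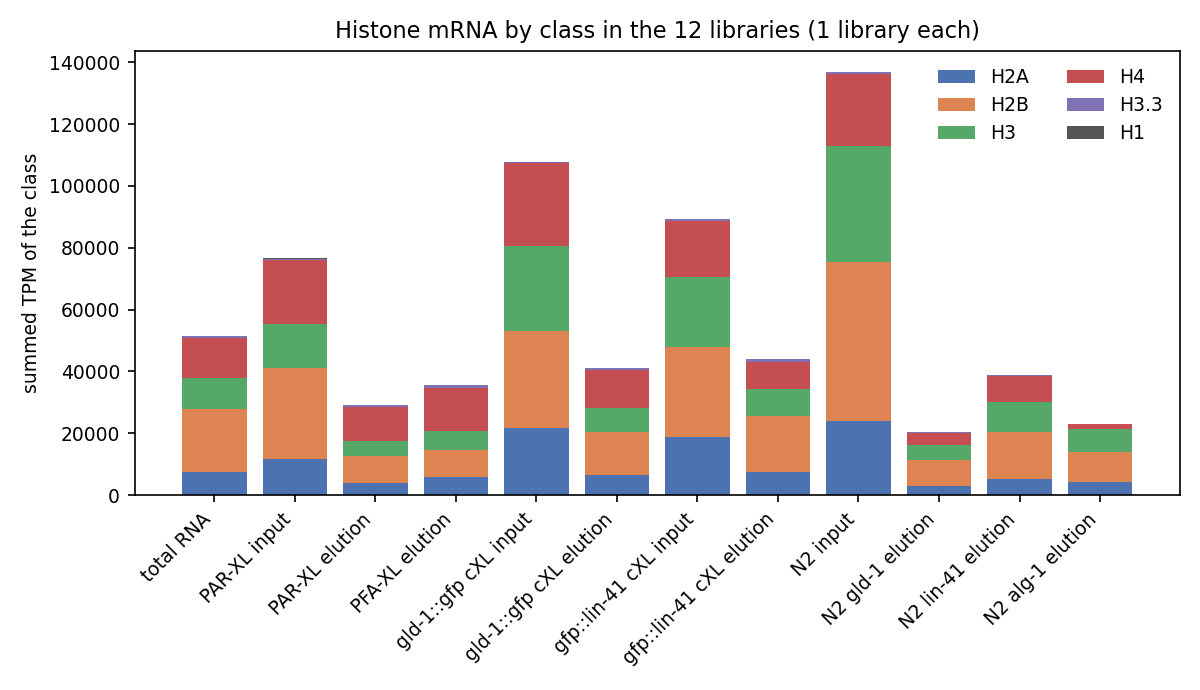
Summed TPM of the 6 histone classes in each of the 12 libraries, 1 stacked bar per library. The sums of the inputs lie between 76664 and 136858 TPM, and those of the elutions between 20505 and 43958 TPM.

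By class, H2B led in all 5 libraries, with 39.2% of histone TPM in total RNA and 37.4% in the N2 input. H4 held 25.2% and 17.2%, H3 19.5% and 27.3%, and H2A 14.8% and 17.6%. H3.3 and H1 were minor. The 6 H3.3 genes summed to 625 TPM in total RNA and to 486, 449, 722 and 527 TPM in the PAR-XL input and the cXL inputs of *gld-1::gfp*, *gfp::lin-41* and N2. TPM of such short transcripts depend on the fragment length set for each library. kallisto subtracted between 150 nt (total RNA) and 373 nt (N2 *alg-1* elution) from long transcripts, and the effective length of a 312 nt H4 transcript was 162 nt in total RNA and 53.2 nt in the *gld-1::gfp* cXL input. Values in CPM, which use no length, are given beside TPM where they differ. Between the PAR-XL and the cXL input of *gld-1::gfp* the sum differed by a ratio of 0.711 in TPM and 1.04 in CPM, so the level of histones relative to long mRNAs cannot be compared between these inputs. The worms of these inputs also differed in culture. Median ratios of PAR-XL to cXL input were 2.54 over sperm, 1.16 over muscle and 0.833 over intestine markers. They were 0.697 over mitotic germline markers, 0.585 over oocyte markers and 0.577 over S phase genes, against 1.24 over all genes. The part of culture was not tested.

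The PAR-XL input was set beside total RNA of the same strain. The paper reports a high correlation between RNA after lysis and RNA taken from worms directly. It reads this as no significant change of relative transcript numbers by lysis. The libraries differ in extraction and in the length subtracted by kallisto. The labels do not say whether the total RNA worms had 4SU. Lysis, crosslinking, labelling and library cannot be told apart here. All 4 core classes were higher in the input, and H3.3 was lower. The summed ratio was 1.49 (95% CI 1.486 to 1.499), or 1.46 in CPM, while the median of 16844 genes was 0.801. The ratio was 1.53 for H2A, 1.46 for H2B, 1.44 for H3, 1.59 for H4 (1.28 in CPM) and 0.777 (95% CI 0.748 to 0.808) for H3.3. Of 66 histone genes with at least 10 counts expected, 6 were at least 2-fold higher, against 1.56% of all genes tested, and 4 were at least 2-fold lower, against 14.2%. The 4 lower genes were *his-55*, *his-57*, *his-65* and *his-66*, all on chromosome IV and all among the genes whose reads were divided differently between libraries. The 6 higher genes were *his-9* and *his-13* (H3, which share their reads), *his-16* (H2A), *his-18* (H4), *his-58* (H2B) and *his-24*. *his-58* belongs to the same redivided set as *his-66*, of which it took 43.02% of counts in total RNA and 60.4% in the input, and the sum over *his-48*, *his-58* and *his-66* had a ratio of 1.46.

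The largest ratio belonged to *his-24*, the linker histone H1. Total RNA held 25.5 TPM of it (335 counts) and the PAR-XL input 144 TPM (2828 counts), for a ratio of 5.64 (95% CI 5.04 to 6.32). The cXL inputs lay between, with 38, 87.9 and 71.4 TPM in *gld-1::gfp*, *gfp::lin-41* and N2. *hil-3*, a further linker histone gene that is no *his-* gene, had 19 TPM in total RNA and 87.8 TPM in the PAR-XL input, and *hil-2* 43.5 and 88.7 TPM. *hil-1*, also of this family, had 76.9 and 41.3 TPM. In the elutions *his-24* rested on few counts, 37 in PAR-XL (99.4 TPM), 24 in PFA-XL (15.1 TPM) and at most 6 in each cXL elution. With *gld-1* probes in N2 it had a ratio of 0.126 (95% CI 0.0562 to 0.281) to the input.

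The elutions were compared with their inputs to see what else a pulldown carries over. Histone mRNAs were lower in all 6 elutions that have an input. The summed ratio of the 72 genes was 0.380 (95% CI 0.368 to 0.393) in PAR-XL *gld-1::gfp*, 0.381 (0.360 to 0.402) in cXL *gld-1::gfp* and 0.492 (0.467 to 0.518) in cXL *gfp::lin-41*. In N2 it was 0.150 (0.145 to 0.154) with *gld-1* probes, 0.285 (0.271 to 0.299) with *lin-41* probes and 0.169 (0.154 to 0.186) with *alg-1* probes. The median ratio of all genes tested was 1.20, 1.13, 1.12, 0.643, 1.27 and 0.619 in the same order. In CPM the histone ratios were 0.187, 0.281, 0.342, 0.0842, 0.189 and 0.131. The 4 core classes alone had TPM ratios of 0.374, 0.377, 0.488, 0.148, 0.283 and 0.168. Marker genes of other cell types moved as well. The 3 muscle markers had median ratios of 0.395, 0.465, 0.523, 0.156, 0.506 and 0.385, and the intestine markers, of which 2 to 4 were tested, 1.29, 0.729, 0.782, 0.478, 0.368 and 0.381. Mitotic germline markers, of which 3 or 4 were tested, had 1.57, 1.07, 1.82, 0.602, 1.94 and 1.41. The 4 oocyte markers had 2.74, 1.43, 1.25, 0.761, 0.643 and 0.350. The intestine markers summed to 14203 TPM in the N2 input and to 156519 TPM in its *gld-1* elution. This rise was that of 1 gene, *vit-6*, with 7074 TPM in the input and 154969 TPM in the elution. *vit-2* fell there from 7109 to 1542 TPM, and *ges-1* and *elt-2* were lower as well. The part of these markers in the histone ratios was not tested.

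Single genes were tested where at least 10 counts were expected in the elution. In PAR-XL *gld-1::gfp* 24 of 36 histone genes were at least 2-fold lower, against 23.6% of all genes, and 1 was at least 2-fold higher, against 28.8%. In cXL *gld-1::gfp* 18 of 25 were lower, against 15.4%, and in cXL *gfp::lin-41* 20 of 30, against 13.1%. In N2 39 of 42 were lower with *gld-1* probes, against 39.4%, 22 of 25 with *lin-41* probes, against 14%, and 17 of 18 with *alg-1* probes, against 38.1%. None of the tested histone genes was at least 2-fold higher in the 5 cXL elutions, where 20.8%, 16.7%, 8.69%, 26.6% and 6.54% of all genes were. Few short genes were higher there too. Among protein-coding genes of 300 to 700 nt that are no histone genes, the share was 1.28% to 5.87% in these elutions. It was 16.6% in PAR-XL. The genes left out in each pulldown, 30 to 54 of 72, had too few counts expected. Copies that share their reads were counted as separate genes, here and in the other comparisons. The counts of histone genes therefore hold fewer separate measurements than genes.

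**Figure D3:**
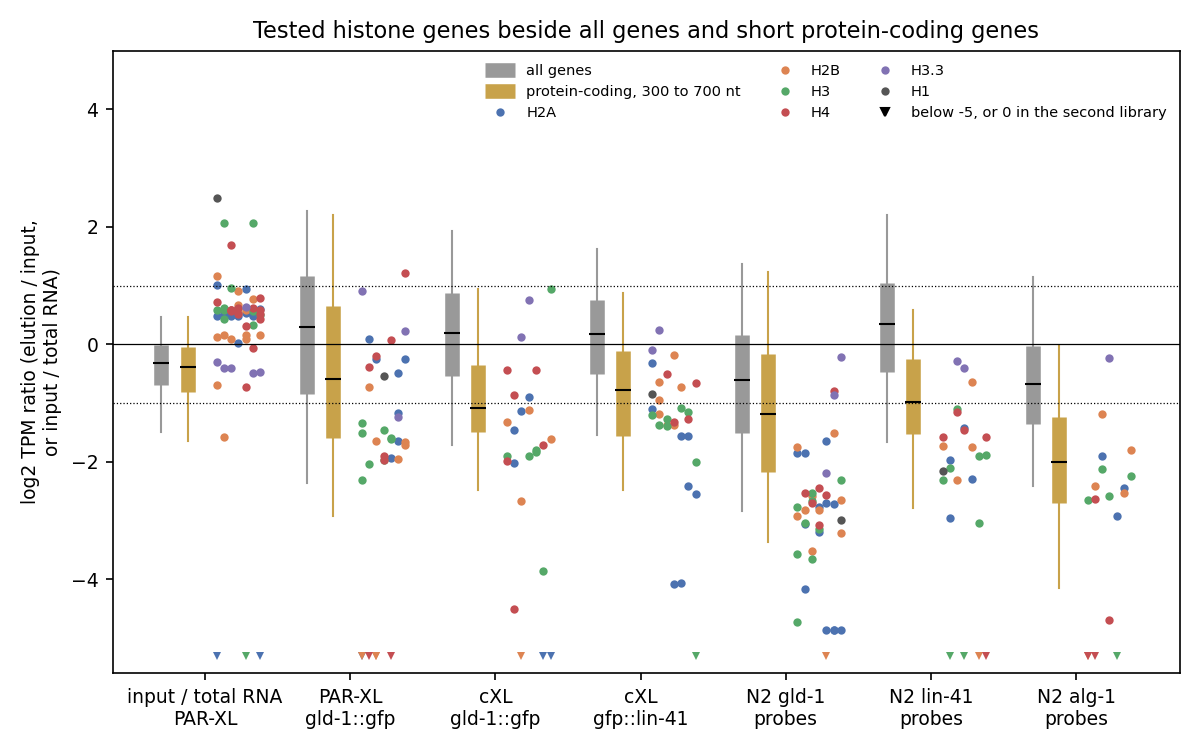
log2 TPM ratio of each tested histone gene (points, coloured by class, with triangles for genes at 0 or under the axis) in the 7 comparisons, beside all genes (grey) and protein-coding genes of 300 to 700 nt (yellow), with boxes from the 25th to the 75th and lines from the 5th to the 95th percentile. Core histone genes lie mostly under the dotted line at -1 in the 6 pulldowns, and short genes lie below all genes too.

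Transcript length moved with this result. Among protein-coding genes of 300 to 700 nt that are no histone genes, the median ratio was 0.596 in PAR-XL, 0.468 in cXL *gld-1::gfp*, 0.579 in cXL *gfp::lin-41* and 0.409, 0.4997 and 0.235 in N2 with *gld-1*, *lin-41* and *alg-1* probes. The share of these genes that was at least 2-fold lower was 43.5%, 53.8%, 47.3%, 56.1%, 50.3% and 84.6%. Histone sums were below these medians in all 6 pulldowns, at 0.638, 0.812, 0.849, 0.366, 0.570 and 0.719 of them. The part of length in the histone ratios was not tested.

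The genes of highest mean level were *his-58* (H2B), *his-63* (H3), *his-47* (H2A) and *his-64* (H4), and each belongs to a set of genes between which reads moved. *his-58* had 14814 TPM in the PAR-XL input and 4737 in the elution, a ratio of 0.320 (95% CI 0.294 to 0.348), and the sum over *his-48*, *his-58* and *his-66* had 0.294 (0.275 to 0.314). In cXL *gld-1::gfp* the ratio of *his-58* was 0.325, but there its part of the counts of this set went from 99.8% to 69.04% while *his-48* gained, and the sum had 0.473 (0.429 to 0.521). In cXL *gfp::lin-41* *his-58* held nearly all counts of the set on both sides, and the sum had 0.604 (0.545 to 0.671), above the median of 0.579 of short genes. In N2 the sum had 0.166, 0.302 and 0.187 with *gld-1*, *lin-41* and *alg-1* probes.

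The H3 set *his-45*, *his-55* and *his-63* had summed ratios of 0.361, 0.287, 0.402, 0.140, 0.265 and 0.196 over the 6 pulldowns in the same order, and *his-63* alone 0.350, 0.279, 0.413, 0.147, 0.266 and 0.212. The H2A set *his-47*, *his-57* and *his-65* had 0.319, 0.262, 0.384, 0.119, 0.203 and 0.183, and *his-47* alone 0.319, 0.362, 0.466, 0.109, 0.203 and 0.183. The sums of the H2B, H3 and H2A sets were all lowest in N2 with *gld-1* probes and highest in *gfp::lin-41*, in TPM as in CPM. The median of all genes was itself 0.643 with *gld-1* probes and 1.27 with *lin-41* probes in N2. Divided by this median, the sum of all 72 histone genes was 0.233 and 0.224, so which pulldown was lowest depends on the centring. The H4 set *his-46*, *his-56* and *his-64* had 0.475, 0.480, 0.399, 0.173, 0.334 and 0.0091, the last on 1 count.

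Of the 17 histone genes tested in all 6 pulldowns, 14 were below 1 in each, and 7 were at least 2-fold lower in each: *his-47* and *his-68* (H2A), *his-54* (H2B), *his-17*, *his-59* and *his-63* (H3) and *his-67* (H4). *his-72* (H3.3) was the only one of the 17 that was 2-fold lower in none. *his-45* ranged from 0 to 1.93, on 16.7 counts, and is a gene whose reads were divided differently between libraries. Some tested genes had no read in an elution, and *his-5* (H4) in the *alg-1* elution, for example, was at least 16.2-fold lower in CPM when its 0 counts were set to 3. The lowest gene of each pulldown was at 0 as well, *his-4*, *his-54*, *his-45*, *his-48*, *his-18* and *his-4*. Several share reads with copies, and up to 5 others were at 0 in the same elution.

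The locus of 4 genes on chromosome IV at 7485748 to 7489142 holds 1 gene of each core class, *his-61* (H2A), *his-62* (H2B), *his-60* (H4) and *his-59* (H3), in this order. It held 6654 TPM in total RNA, 9986 in the PAR-XL input and 12244, 9221 and 15675 in the cXL inputs of *gld-1::gfp*, *gfp::lin-41* and N2, that is 10.3% to 13.03% of histone TPM. From total RNA to the PAR-XL input its genes had nearly the same ratio, 1.538 for *his-61*, 1.493 for *his-62*, 1.499 for *his-60* and 1.497 for *his-59*. In the pulldowns they differed. *his-59* had ratios of 0.255, 0.269, 0.450, 0.113, 0.232 and 0.229 in the order above, and *his-62* had 0.305, 0.459, 0.516, 0.159, 0.296 and 0.174. *his-61* ran from 0.131 with *alg-1* probes, on 5 counts, to 0.798 (95% CI 0.585 to 1.09) in *gfp::lin-41*. *his-60* had 1.06, 0.552, 0.631, 0.168, 0.449 and 0.0387. In TPM as in CPM it was above its 3 neighbours in 4 of 6 pulldowns, below *his-61* in *gfp::lin-41*, and below all 3 with *alg-1* probes (95% CI 0.00968 to 0.155, on 2 counts). How far the division of reads among copies enters these differences was not tested.

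H4 had the widest range of ratios among the core classes, which rests on 19 counts in the *alg-1* elution. Without that elution H4 ran from 0.163 to 0.532 and H2B from 0.163 to 0.625. The summed ratio of H4 was 0.532 (95% CI 0.495 to 0.571) in PAR-XL, above the 0.294 to 0.341 of H2A, H2B and H3, but 0.260 against 0.150 to 0.186 in CPM. The set *his-46*, *his-56* and *his-64* went from 15662 to 7445 TPM there, all of it given to *his-64* in the elution, and *his-60* had 2452 TPM in the input and 2590 in the elution. With *alg-1* probes the H4 sum was lowest, at 0.0646 (95% CI 0.0412 to 0.101) on 19 counts, and *his-64* went from 11468 TPM to 104 TPM on 1 count. H2A, H2B and H3 had 0.181 to 0.198 in that elution.

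H3.3 mRNAs stood apart from H3 mRNAs. The H3.3 ratio of elution to input was 1.28 (95% CI 1.06 to 1.54) in PAR-XL, 1.33 (0.918 to 1.93) in cXL *gld-1::gfp*, 0.991 (0.713 to 1.38) in cXL *gfp::lin-41*, and 0.638 (0.527 to 0.771), 0.720 (0.481 to 1.08) and 0.434 (0.207 to 0.910) in N2 with *gld-1*, *lin-41* and *alg-1* probes. In CPM the H3.3 ratios were 0.704, 0.936, 0.666, 0.363, 0.498 and 0.362, all below 1, so whether H3.3 was above its input in *gld-1::gfp* depends on the length correction. Divided by the H3 ratio of the same pulldown, the TPM ratios were 3.77 (95% CI 3.103 to 4.59), 4.68 (3.17 to 6.91), 2.54 (1.79 to 3.58), 4.8 (3.94 to 5.85), 2.83 (1.87 to 4.29) and 2.19 (1.02 to 4.67). In CPM the same quotients were 3.78, 4.39, 2.50, 4.78, 2.93 and 2.47. In all 6 pulldowns H3.3 was thus higher relative to H3 in the elution than in the input, beyond counting error. From total RNA to the PAR-XL input the quotient was 0.539 (95% CI 0.518 to 0.561), the opposite direction. The numbers of H3.3 counts in the elutions were small, from 7.03 (*alg-1* probes) to 114 (PAR-XL) where an input exists.

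**Figure D4:**
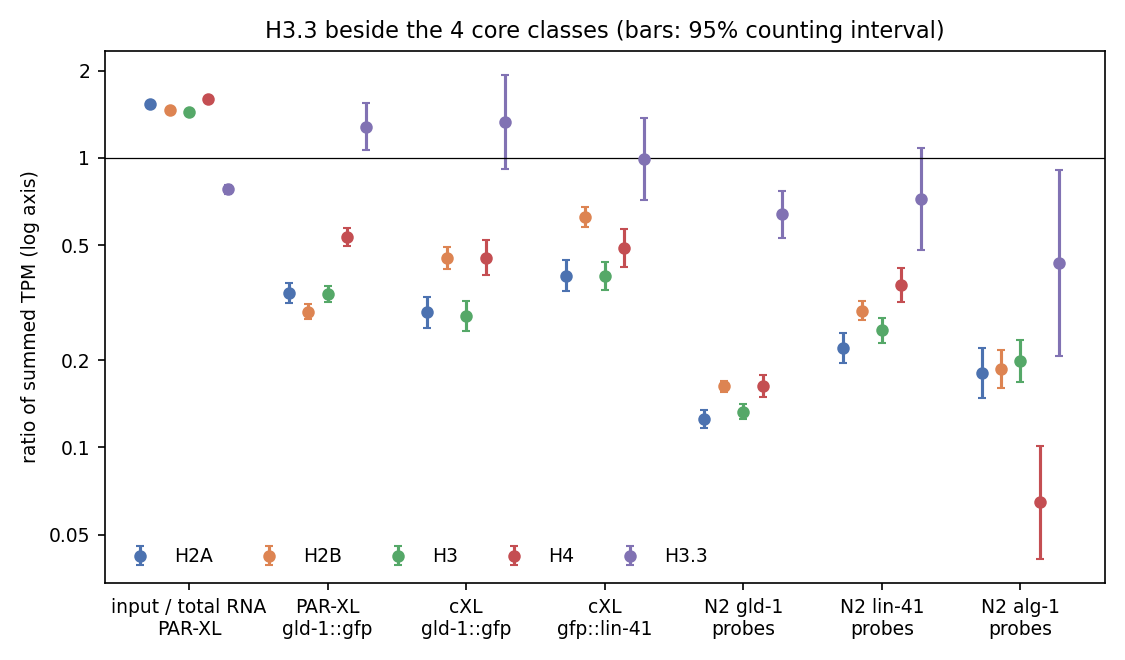
Ratio of summed TPM (log axis) for the 4 core classes and H3.3, elution over input in 6 pulldowns and input over total RNA on the left, with 95% counting intervals. H3.3 lies above every core class in the 6 pulldowns (0.434 to 1.33) and below them in the input over total RNA (0.777).

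Most H3.3 mRNA came from *his-72* and *his-74*, which held 81.4% of H3.3 TPM in total RNA, 82.4% in the PAR-XL input and 90.7% to 93.98% in the 3 cXL inputs. *his-72* was at 278 TPM in total RNA, at 226, 197, 349 and 268 TPM in the PAR-XL input and the cXL inputs of *gld-1::gfp*, *gfp::lin-41* and N2, and at 148 to 376 TPM in the 7 elutions. Its ratio was 1.17 (95% CI 0.893 to 1.53) in PAR-XL and 0.551 (0.421 to 0.723) with *gld-1* probes, the lowest of the 6 pulldowns. *his-74* was at 231 TPM in total RNA and at 175, 214, 330 and 210 TPM in the inputs. It had 330 TPM in the PAR-XL elution, a ratio of 1.88 (1.44 to 2.46) that was 1.00 in CPM, and no count in the *alg-1* elution, where it was not tested. *his-71* was at 93.7 TPM in total RNA and 24.8 to 67.5 TPM in the inputs, and had a ratio of 0.423 (0.176 to 1.02) on 5 counts in PAR-XL. *his-69*, *his-70* and *his-73* were at most at 15.7 TPM in any library.

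An H4 gene with an intron, *his-37*, also had high ratios. It had 194 TPM in total RNA, 117, 90.8, 186 and 110 TPM in the inputs, and 273 TPM in the PAR-XL elution, a ratio of 2.33 (95% CI 1.59 to 3.41) that was the highest of any tested histone gene there. In CPM this ratio was 1.06. Its ratio in N2 with *gld-1* probes was 0.580 (0.324 to 1.04), and other cXL elutions held 1 to 6 counts. *his-35* (H2A) was at 138 TPM in total RNA and 140 TPM in the PAR-XL input, with ratios of elution to input of 0.709 (0.402 to 1.25) in PAR-XL and 0.320 (0.151 to 0.679) with *gld-1* probes. *his-41* (H2B) lies between them on chromosome V (9545522 to 9546265) and had 119 TPM in total RNA and a ratio of 0.298 (0.132 to 0.670) with *gld-1* probes.

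The genes were therefore also divided by introns, a division made after their values were seen. *his-57* was left out, since it shares its reads with the single-exon gene *his-65* (2504 and 2501 TPM in the *gld-1::gfp* cXL input). The other 7 genes with introns, 470 to 902 nt long, had summed ratios of 1.21, 1.18, 0.902, 0.536, 0.715 and 0.532 in the 6 pulldowns. In CPM they had 0.604, 0.799, 0.586, 0.287, 0.439 and 0.417. The 64 single-exon genes had TPM ratios of 0.370, 0.384, 0.491, 0.147, 0.282 and 0.167. The 19 of these that are at least 444 nt long had 0.356, 0.391, 0.535, 0.146, 0.279 and 0.192. Relative to these long single-exon genes, the genes with introns were 3.39 (95% CI 2.93 to 3.92), 3.01 (2.15 to 4.23), 1.69 (1.27 to 2.24), 3.66 (3.09 to 4.35), 2.56 (1.82 to 3.61) and 2.76 (1.59 to 4.81) times as high. With *his-57* kept, the ratio of the genes with introns was 0.273 in cXL *gld-1::gfp*, below that of the single-exon genes, and 0.506 in cXL *gfp::lin-41*, close to theirs. The 3 H3.3 genes are among the 7, so both divisions share values.

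The strains differed in their cXL inputs at the locus on chromosome II. Its 13 genes summed to 1681 TPM in N2, 3173 in *gld-1::gfp* and 11209 in *gfp::lin-41*, that is 1.23%, 2.94% and 12.5% of histone TPM. The ratio of *gfp::lin-41* to N2 was 6.67 (95% CI 6.44 to 6.90), while the 59 other histone genes had a ratio of 0.578 (0.575 to 0.582). The values in CPM were 6.66 and 0.546. Of 51 tested histone genes 11 were at least 2-fold higher in *gfp::lin-41* than in N2, against 13.1% of all genes, and 5 at least 2-fold lower, against 1.15%. The median of all genes was 1.30. *his-11* (H2B) had 804 TPM in N2, 1223 in *gld-1::gfp* and 4942 in *gfp::lin-41*. *his-25* (H3) had 157, 273 and 1265 TPM, and *his-16* (H2A) 302, 607 and 2168 TPM. In all 3 genes N2 was lowest and *gfp::lin-41* highest.

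**Figure D5:**
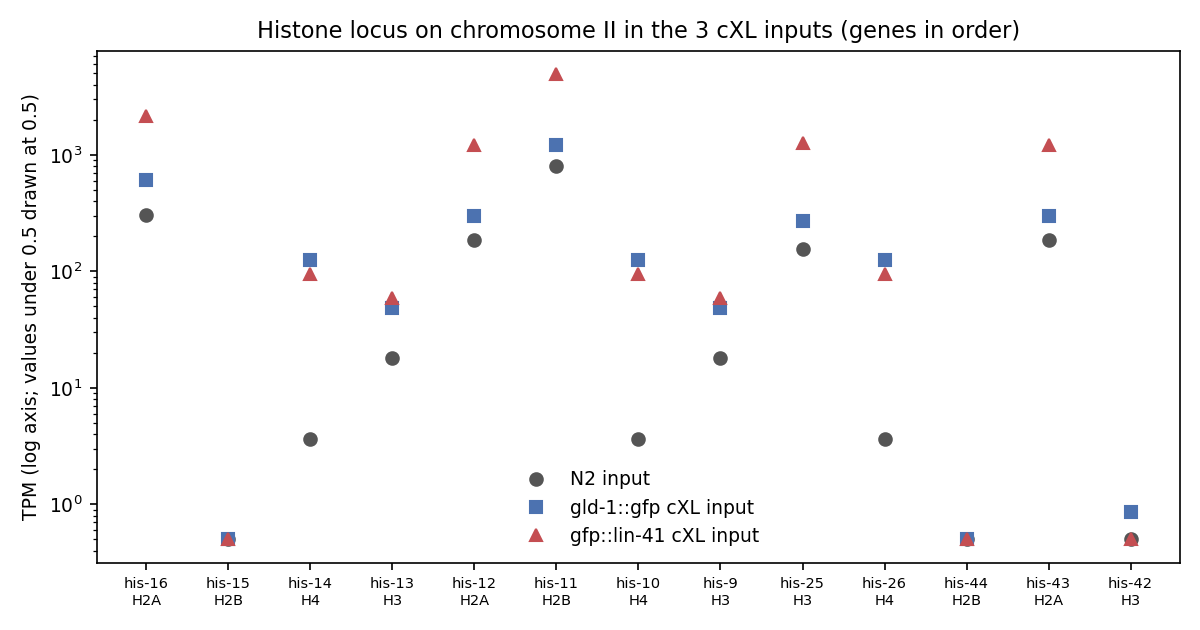
TPM (log axis) of the 13 histone genes on chromosome II, in chromosomal order, in the cXL inputs of N2 (circles), *gld-1::gfp* (squares) and *gfp::lin-41* (triangles). *his-16*, *his-12*, *his-11*, *his-25* and *his-43* are highest in *gfp::lin-41*, *his-15* and *his-44* have no reads in any of the 3, and the H4 genes *his-14*, *his-10* and *his-26* share their reads.

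The H4 genes of this locus, *his-10*, *his-14* and *his-26*, had 3.62 TPM each in N2, 125 in *gld-1::gfp* and 94.6 in *gfp::lin-41*, so here *gld-1::gfp* was highest. The elution of *gfp::lin-41* kept the high share, with 6069 TPM or 13.8% of histone TPM at this locus. There *his-11* had 4348 TPM, a ratio of 0.880 (95% CI 0.756 to 1.02) to its input. Outside of the locus, the H2B genes *his-29* and *his-34* on chromosome IV, which share their reads, had 547 TPM each in *gfp::lin-41* against 214 in N2. The H2B set of *his-58* and the H2A set of *his-47*, in contrast, had ratios of 0.427 (0.423 to 0.432) and 0.551 (0.544 to 0.559). In total RNA and the PAR-XL input of *gld-1::gfp* the locus held 1.09% and 1.16% of histone TPM. Strain, worm culture and library are the same split here and cannot be told apart. How far the division of reads among copies enters the sums of this locus was not tested. The median ratio of *gfp::lin-41* to N2 was 1.08 over 4 mitotic germline markers, 0.906 over 4 oocyte markers, 1.04 over 6 sperm markers and 1.13 over 4 tested intestine markers. It was 0.675 over 3 muscle markers, which summed to 2098 TPM in N2 and 1368 in *gfp::lin-41*, and 0.556 for the 1 tested of 2 hypodermis markers (1983 and 1104 TPM), so these were lower in *gfp::lin-41* along with the histone genes outside of the locus. The part of the markers was not tested.

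Between *gld-1::gfp* and N2 cXL inputs the histone sum had a ratio of 0.788 (95% CI 0.784 to 0.791), 0.898 in CPM. Of 51 tested genes 13 were at least 2-fold lower, against 2.58% of all genes, and 5 at least 2-fold higher, against 3.44%. In CPM the balance turned, with 3 of the 51 at least 2-fold lower and 8 at least 2-fold higher. Among the tested genes the lowest and the highest TPM ratio belonged to *his-8* (H2B, 128 TPM in N2 and 34.9 in *gld-1::gfp*) and *his-38* (H4, 24 and 124 TPM). Genes with too few counts expected, such as *his-10* above, differed by more.

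In the PFA-XL elution of *gld-1::gfp* histones summed to somewhat more than in the PAR-XL elution. The sum was 35590 TPM in PFA-XL and 29163 in PAR-XL, a ratio of 1.22 (95% CI 1.18 to 1.26), against 76664 TPM in the input. H2B had 8706 and 8626 TPM and H3.3 769 and 622 TPM. Of 29 tested genes 2 were at least 2-fold higher in PFA-XL, *his-3* (H2A, 81.1 and 189 TPM in PAR-XL and PFA-XL) and *his-18* (H4, 120 and 265 TPM), against 6.42% of all genes. Only *his-24* was at least 2-fold lower, against 16.8%, with a ratio of 0.152 (0.0908 to 0.254).

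Worm histone counts in the elutions stood beside far larger human ones. The carrier RNA of the elutions comes from human HEK293 cells, and 121 human histone genes held 1046423 counts in the PAR-XL elution against 3587 of worm histones. The worm counts were 0.215% to 2.64% of the human histone counts over the 7 elutions. How many reads kallisto assigned to the wrong species was not tested.

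Genes that act on histones or in S phase mostly had higher ratios than the core histones. The median of all genes did too, at 1.20, 1.13, 1.12, 0.643, 1.27 and 0.619 in the 6 pulldowns. *cdl-1*, which encodes the stem-loop binding protein, had 112 TPM in the PAR-XL input and 198 in the elution, a ratio of 1.77 (95% CI 1.51 to 2.07), and ratios of 1.30, 1.41, 0.692, 1.66 and 1.11 in the cXL pulldowns. *csr-1*, an Argonaute gene listed here for its reported role in histone mRNA maturation, had ratios of 1.29, 1.22, 1.33, 0.510, 1.29 and 0.313. *htz-1*, the H2A.Z variant, had 342 and 556 TPM in PAR-XL, and ratios from 0.716 to 1.62 over the 6 pulldowns. *pcn-1*, the sliding clamp of DNA replication, had ratios between 0.634 and 2.40. *rnr-2*, a subunit of ribonucleotide reductase, was below 1 in 5 of 6, with ratios from 0.324 to 1.23.

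As lists, 12 histone chaperone genes had 8 members at least 2-fold higher and 0 lower in PAR-XL (median 3.28), and 4 higher and 2 lower of 10 tested in cXL *gld-1::gfp* (1.84). In cXL *gfp::lin-41* 2 of 12 were higher and 0 lower (1.56). In N2 they were 4 higher and 1 lower of 12 with *gld-1* probes (1.10), 5 and 0 of 12 with *lin-41* probes (1.89), and 3 and 2 of 7 with *alg-1* probes (1.03). Of 12 S phase genes, 5 were higher and 0 lower in PAR-XL (median 1.62), 0 and 0 of 10 in cXL *gld-1::gfp* (0.753), and 1 and 0 in cXL *gfp::lin-41* (1.05). They were 1 and 3 with *gld-1* probes (0.687) and 3 and 0 with *lin-41* probes (1.20). With *alg-1* probes 6 of 9 S phase genes were lower and 0 higher (median 0.432). Over all genes 28.8%, 20.8%, 16.7%, 8.69%, 26.6% and 6.54% were at least 2-fold higher in the 6 pulldowns, and 23.6%, 15.4%, 13.1%, 39.4%, 14% and 38.1% lower. The list of 11 histone variants and H1-like genes held the centromeric H3 gene *hcp-3*, which had 85.3 TPM in the PAR-XL input and 24.8 in the elution, and 0 of its tested members were higher in any pulldown, with 2 of 8, 1 of 4, 0 of 5, 6 of 7, 2 of 6 and 2 of 4 lower.

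Across the 12 libraries the genes whose TPM followed the summed histone TPM most closely, of 5463 genes above 1 TPM in every library, were the ribosomal protein genes *rpl-20*, *rpl-25.2*, *rpl-3* and *rpl-9* (Spearman rho 0.986) and *rps-16* (0.979). In CPM the rho of these 5 lay between 0.916 and 0.958. The points share the split into inputs and elutions, and all 5 are mRNAs of 517 to 1324 nt.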

How the data were processed

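RNA of 12 libraries (1 total RNA, 4 inputs, 7 elutions; 1 per condition) was analysed, grouped by title. The authors pseudo-aligned single-end reads with kallisto 0.43.1 to WBcel235 transcripts (Ensembl release 81), with transgene, ERCC spike-ins and human transcripts where they applied. The deposited estimated counts are kallisto's shares of reads per transcript, not normalized. TPM, as deposited, add up to 1000000 in each file, with human and ribosomal RNA counted in. Lengths and effective lengths come from the same tables.

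Ribosomal RNAs, 3 entries overlapping them, spike-ins, human RNAs and the target of each elution (transgene, or the probed gene in N2) were left out, TPM rescaled to 1000000 and transcripts summed per gene. CPM are estimated counts scaled likewise. Symbols of 43693 of 46748 identifiers came from a table of gene names. It gives 72 histone genes only 50 symbols, so these were named by sequence name through RefSeq locus tags (72 of 72). Coordinates are those of the tables, exons those of Ensembl 115.

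A gene was tested where its CPM in the first library gave at least 10 counts in the second, and called at a ratio of at least 2 or at most 0.5. Ratios carry 95% intervals on the log scale, with estimated counts taken as Poisson. With 1 library per condition no p-value was computed. Named genes were the class sums, *his-24*, *his-35*, the H3.3 genes, the highest gene of each core class, the top 3 genes, the highest and lowest tested gene of each pulldown, 4 pathway genes and the 5 genes most alike by Spearman rho; others were picked after their values were seen. The members and lists were chosen with earlier results of these data known. Ratios were tested on simulated data with independent counts per gene. The simulation held no division of reads between copies and no difference in effective length. It therefore does not check the intervals of genes that share reads. Comparisons between inputs and between the PFA-XL and PAR-XL elutions were added without alternatives. Alternatives to unit, length, filter, fold, centring and the rows kept were computed. Tools were pandas 2.3.3, numpy 2.4.6 and matplotlib 3.10.9 under Python 3.11.15. No sequence was analysed here.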

Additional observations from a re-analysis of the deposited data

How the results depend on the processing

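With 1 library per condition, the spread between replicates is not known, and intervals of the counting error are too narrow for single genes that share reads. No paired analysis was possible because each group holds 1 library and the labels give no replicate numbers. No summed ratio crossed 1. Values are given for the input over total RNA, then for the elutions over inputs of PAR-XL *gld-1::gfp*, cXL *gld-1::gfp*, cXL *gfp::lin-41*, and N2 with *gld-1*, *lin-41* and *alg-1* probes. The summed ratios were 1.46, 0.187, 0.281, 0.342, 0.0842, 0.189 and 0.131 in CPM. With annotated in place of effective lengths they were 1.39, 0.252, 0.360, 0.445, 0.126, 0.246 and 0.132. With ribosomal RNAs kept they were 1.42, 0.230, 0.0992, 0.162, 0.0714, 0.0795 and 0.0675, and with only the entries overlapping them kept 1.48, 0.269, 0.262, 0.415, 0.132, 0.239 and 0.136. With the target kept, the 6 elutions had 0.158, 0.133, 0.209, 0.101, 0.120 and 0.134. Divided by the median of all genes the ratios were 1.86, 0.318, 0.336, 0.438, 0.233, 0.224 and 0.273, and by that of protein-coding genes of 300 to 700 nt, chosen after seeing the data, 1.95, 0.638, 0.812, 0.849, 0.366, 0.570 and 0.719.

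The number of genes past 2-fold in the input over total RNA went from 10 to 6 at 4-fold and to 16 when divided by the median of all genes. With no minimum count, 25, 18, 20, 22 and 17 genes became 47, 48, 47, 51 and 51 in PAR-XL, cXL *gld-1::gfp*, cXL *gfp::lin-41* and N2 with *lin-41* and *alg-1* probes. At 4-fold the first 4 of these became 8, 7, 5 and 11. The 39 genes of N2 with *gld-1* probes stayed within 1.5 times under every alternative run. Of 107 class sums and named genes recomputed in CPM, 102 had a lower ratio, 64 moved by more than their interval and 0 turned a called direction.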
